A study of Mus musculus with 8 samples.

Results

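Interferon-stimulated genes are the antiviral genes that cells switch on when a virus is sensed. The 39 genes described here are such genes, together with the cytoplasmic sensors of foreign RNA that start the response. They were picked out of the tables by gene symbol. All 39 symbols were found in each of the 8 gene tables, among 21989 named units in all, a unit being 1 gene symbol or several that the tables joined into 1 entry. The libraries are RNA-seq of mouse pluripotent stem cells, 2 per group. CDGC1 and CDGC6 are separate lines of genotype Dnd1ter/ter, taken from early teratoma cells of new-born testis and carrying an Oct4 reporter (strain 129Sv/Dnd1ter/ter/Oct4deltaPE-GFP), at passages 15 to 18. The control was E14tg2a embryonic stem (ES) cells of strain 129/Ola, labelled wild type, at passages 10 to 12. Dnd1-KD cells are ES cells of the same strain, genotype label and passages with Dnd1, the gene of a germ line RNA-binding protein, knocked down; how is not given in the sources used here. All cells were grown with serum and the cytokine LIF. Line, strain, genotype and passage differ together between the derived lines and the ES cells, so their parts cannot be told apart, and each derived line is 1 line.

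Foreign RNA in the cytoplasm is bound by RIG-I (Ddx58) and MDA5 (Ifih1), which signal through the adaptor MAVS to the kinase TBK1 and the factor IRF3 and so to the interferon genes. Secreted interferon binds its receptor, and the JAK kinases then activate a complex that holds STAT2 and IRF9 and binds the interferon-stimulated response element (ISRE) in the promoters of the induced genes. Interferon gamma acts through another site, the GAS element, and induces IRF1. Mouse ES cells are known for a weak interferon response compared with differentiated cells.

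Sequences upstream of 7 genes are given first, because 5 of them hold elements through which interferon-stimulated genes are known to be induced and the other 2, Trim25 and Parp12, are the members nearly lost in CDGC1. They come from the RefSeq promoter table (build GRCm38.p6), in which 28 of the 39 members had an entry. Each runs 5′ to 3′ on the gene's strand and ends at the last base before the annotated start. Capitals mark the ISRE core, which is GAAA, any 2 bases and GAAA again, and the GAS core TTCNNNGAA, both searched on both strands. Isg15 (chr4:156200819-156200968, minus strand) has 3 overlapping ISRE cores, from 78 to 57 bases upstream. Irf1 (chr11:53769864-53770013, plus strand) has a GAS core and no ISRE core. Bst2 (chr8:71537473-71537622, minus strand) has a GAS core that runs into 2 ISRE cores. Ifit1 (chr19:34640739-34640888, plus strand) and Ifit3 (chr19:34583359-34583528, plus strand) have 2 ISRE cores each. Trim25 (chr11:88999253-88999402, plus strand) and Parp12 (chr6:39118350-39118499, minus strand) hold neither core in these stretches.
Isg15: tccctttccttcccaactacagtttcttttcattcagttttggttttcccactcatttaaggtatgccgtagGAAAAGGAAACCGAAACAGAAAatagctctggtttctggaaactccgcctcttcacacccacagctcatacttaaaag
Irf1: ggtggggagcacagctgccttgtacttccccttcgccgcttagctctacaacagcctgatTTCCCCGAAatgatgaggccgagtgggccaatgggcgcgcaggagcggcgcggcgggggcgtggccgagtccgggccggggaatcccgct
Bst2: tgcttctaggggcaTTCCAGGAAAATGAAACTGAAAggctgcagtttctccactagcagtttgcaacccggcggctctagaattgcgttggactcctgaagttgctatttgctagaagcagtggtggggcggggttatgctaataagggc
Ifit1: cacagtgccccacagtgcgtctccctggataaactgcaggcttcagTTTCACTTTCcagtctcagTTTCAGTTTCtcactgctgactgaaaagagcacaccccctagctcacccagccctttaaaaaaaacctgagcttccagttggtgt
Ifit3: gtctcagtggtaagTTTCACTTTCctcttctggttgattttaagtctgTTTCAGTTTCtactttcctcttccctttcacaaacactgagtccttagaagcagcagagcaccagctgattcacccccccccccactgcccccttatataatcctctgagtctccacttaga
Trim25: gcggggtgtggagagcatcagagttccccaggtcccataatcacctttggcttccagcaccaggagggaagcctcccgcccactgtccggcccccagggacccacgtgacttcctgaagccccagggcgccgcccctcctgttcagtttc
Parp12: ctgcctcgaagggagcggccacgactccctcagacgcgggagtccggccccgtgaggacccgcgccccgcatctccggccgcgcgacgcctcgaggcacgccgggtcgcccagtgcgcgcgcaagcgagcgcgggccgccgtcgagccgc

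Over the whole 300-base window (250 bases before the start and 50 after), an ISRE core lay in the first listed window of 10 of the 28 members, against 3.49% of 27025 genes. A GAS core lay in 6 of the 28, against 8.47% of all. A match is a description of the letters and not a shown binding site. Of the 13 members with an entry that were higher in CDGC1 than in control by the test described next, 2 held an ISRE core and 3 a GAS core. Of the 3 that were lower, 1 held an ISRE core and 1 a GAS core. Of the 12 that were neither or were not tested, 7 held an ISRE core and 2 a GAS core. The 13 higher members include Irf9, which was called by an entry summed with other genes.

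Levels are FPKM, fragments scaled to transcript length and library size, so they can be compared between genes. Differences are on the log2 scale of FPKM + 1 and are given ± the standard error (SE), and adjusted p values are from limma with the Benjamini-Hochberg method over 11889 tested units. A call is an adjusted p under 0.05. The tables hold no counts; the intervals given with each value imply 10700000 to 18000000 fragments per library. Nothing in the labels says whether a group's 2 libraries are separate cultures, and p values then measure only how far 2 libraries differ, which can be technical. Of the pluripotency markers, Pou5f1, Sox2 and Nanog were above 60 FPKM in every library, whereas Zfp42, Esrrb and Dppa4 were under 1 FPKM in both CDGC1 libraries. The 10 pluripotency markers summed to 1195 to 1451 FPKM in Dnd1-KD, against 2388 to 2390 in control, 1852 to 1946 in CDGC1 and 2605 to 3049 in CDGC6, and Pou5f1 was at 531 and 457 in Dnd1-KD against 944 and 934 in control. Dnd1 had no value of its own in the Dnd1-KD libraries, where the tables join it with Hars, so the knockdown could not be checked.

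Signs of other cell types were looked for because immune cells and fibroblasts express many of these genes. Leukocyte markers with a value of their own, 9 of 10 listed, summed to at most 0.453 FPKM in a CDGC1 library, 1.04 in a CDGC6 library, 0.560 in a control library and 1.04 in a Dnd1-KD library, and Tyrobp was listed at 0 in 7 of the 8. Fibroblast markers moved with the derived lines. The 10 listed summed to 37.7 and 39.9 FPKM in CDGC1, 27.4 and 35.6 in CDGC6, 8.41 and 9.27 in control, and 12.4 and 12.7 in Dnd1-KD. The collagen genes Col1a1 and Col1a2 made up the larger part in CDGC1 and CDGC6, while Dcn and Lum stayed under 0.6 FPKM in all 8 libraries. Col6a3 was at 1.22 and 1.39 FPKM in CDGC1 and 1.14 and 1.36 in CDGC6, against 0.0144 and 0.0104 in control. Postn was at 0.745 and 2.17 FPKM in CDGC1 and 1.189 and 1.095 in CDGC6, against 0.0432 and 0.0734 in control. Dcn was at 0.568 and 0.310 FPKM in CDGC6, against 0.0994 and 0.116 in control. Of 6 endoderm markers, Foxa2 was at 8.15 and 38.6 FPKM in CDGC1, 5.74 and 2.71 in CDGC6 and at most 0.539 in the ES cells. It carried nearly all of the CDGC1 sums of 8.73 and 40.9 FPKM. Ttr was listed at 0 throughout and Sox7 was at 0.0516 and 0.0108 in CDGC1 against 0.364 and 0.294 in control. Gata6 was at 0.441 and 1.35 FPKM in CDGC1 and 1.285 and 1.70 in Dnd1-KD, against 0.238 and 0.236 in control. Sox17 was at 0.0456 and 0.864 FPKM in CDGC1, against 0.0646 and 0.0683 in control. The part of these markers in the results was not tested. In bulk RNA, fewer cells of a type and less RNA per cell cannot be told apart. Endothelial markers summed to 0.920 to 1.87 FPKM in CDGC1 and 8.11 to 10.3 in CDGC6. They summed to 13.3 to 13.8 FPKM in control and 22.4 to 25.6 in Dnd1-KD. Pecam1 alone was at 17.55 and 20.04 FPKM in Dnd1-KD, and Emcn was listed at 0 throughout. Testis somatic markers with their own value, 9 of 10 listed, summed to 6.67 to 9.91 in CDGC1 and 2.49 to 3.62 in CDGC6. Their sums were 3.07 to 3.75 in control and 4.80 to 5.58 in Dnd1-KD.

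Of the 39 members, 28 passed the filter of at least 1 FPKM in at least 2 libraries and were tested, and 11 did not. The 5 members Ifih1, Usp18, Rtp4, Herc6 and Lgals3bp passed through the CDGC1 libraries alone, and Dhx58 through the Dnd1-KD libraries alone, so each of these had to differ. Zbp1, Ifi27 and Ifit2 passed through libraries of the derived lines alone, with every ES cell library under 1 FPKM. Eif2ak2 had no value of its own in any library, and Irf9 had none in most. Eif2ak2, the RNA-activated kinase PKR, shared its entry with Gm6548 in all 8 libraries. Irf9 was joined with Rnf31 in 5 libraries, and in 1 of these also with Dcaf11 and Psme1, so its tested value is a sum over Dcaf11, Irf9, Pck2, Psme1 and Rnf31 and says little about Irf9.

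**Figure D1:**
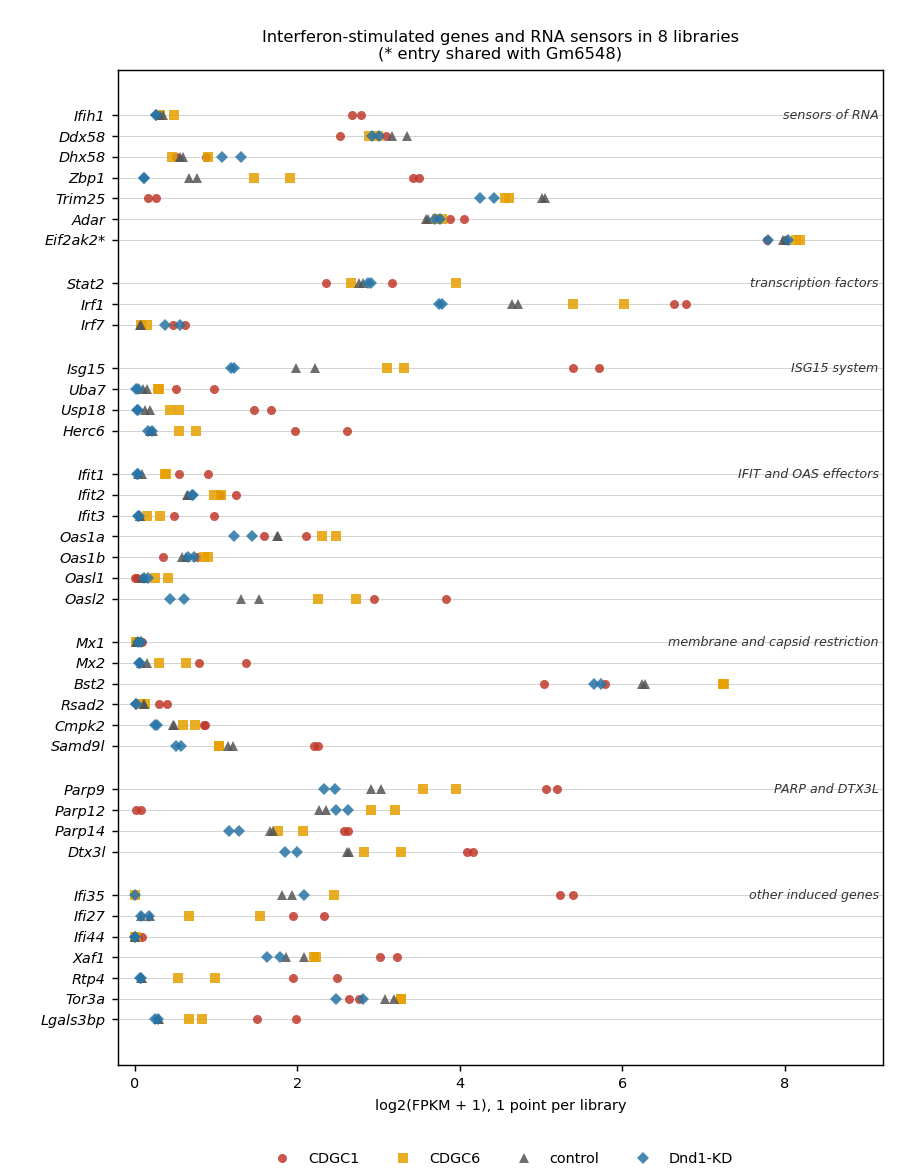
Level of 38 of the 39 members (rows, grouped by role) as log2(FPKM + 1) on the horizontal axis, with 1 point per library and a colour and shape per group. Irf9 is left out because it had no value of its own in most libraries. For many members the CDGC1 points lie farthest to the right, with CDGC6 next, while Trim25 and Parp12 show CDGC1 near 0.

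Most of the 39 genes were highest in CDGC1 and lowest in Dnd1-KD. The group means ran CDGC1, CDGC6, control, Dnd1-KD from high to low in 21 of the 39 members, an order found in 7.65% of all 18737 units above 0 in any library. Over units that passed the filter that order was found in 10.4%. CDGC1 had the highest mean in 28 members, against 24.3% of all units and 29% of those tested, and Dnd1-KD the lowest in 26, against 20.9% and 27.7%. Among others, Isg15, Irf1, Zbp1, Oasl2, Parp9, Parp14, Dtx3l, Xaf1 and Usp18 followed this order with no overlap between the libraries of neighbouring groups. Ddx58, Oas1b, Oasl1, Bst2, Parp12, Trim25 and the joint entry of Eif2ak2 had their lowest mean in CDGC1.

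Against control, 19 of the 28 tested members were higher in CDGC1 and 4 were lower. Of the 26 tested members with a value of their own, 18 were higher and 4 lower. Over all units tested, 23.6% were higher and 26.9% lower, 50.5% in all. The median log2 difference was 1.29 for the members and −0.03 for all units. Without the filter on low values, 27 of the 39 members were higher and 4 lower, against 16.5% and 24.2% of all units. Both CDGC1 libraries lay above both control libraries in 28 of the 39 members and below them in 6, against 28.9% and 42.5% of units above 0. Of the 23 calls, 19 held in every alternative in which the gene could be fitted, among them those of Isg15, Zbp1, Irf1 and Trim25. Those of Adar, Bst2, Ifi35 and Tor3a ended in at least 1, each of them without the first and without the second control library. The 19 held calls and the 19 higher members both include the 5 members that passed the filter through the CDGC1 libraries alone. Those 5 had to differ, so their calls are no support. Zbp1, Ifi27 and Ifit2, in both counts too, passed through libraries of the derived lines alone, so their calls are no support either. Both counts also include Irf9, by its summed entry.

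In CDGC6, 8 of the 28 members were higher than in control and 1 was lower, against 8.49% and 10.2% of all units (18.7% in all), with a median of 0.43 against −0.01. This comparison shares the control libraries with the other. The 8 include Zbp1 and Ifit2, which passed the filter through libraries of the derived lines alone, so their calls are no support. Without the filter 10 of the 39 were higher and 1 lower, against 5.85% and 7.42%. With the filter, of the 26 members with a value of their own, 7 were higher and 1 lower. No member was called without the first control library, 1 without the second, and 5 without the first CDGC6 library, while 15 were called without the first or without the second CDGC1 library. Isg15 in CDGC6 stood 1.11 log2 units above control with all libraries and 0.99 without the first control library (adjusted p = 0.055, limma). The difference of Irf1 in CDGC6, 1.03, ran from 0.71 to 1.34 when 1 library was left out. Both CDGC6 libraries lay above both control libraries in 28 of the 39 members and below them in 3, against 28.9% and 34.4% of units above 0.

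In Dnd1-KD, 9 of the 28 members were lower than in control and 1, Dhx58, was higher, against 15.5% and 20.7% of all units (36.3% in all), with a median of −0.32 against 0.02. Without the filter 9 of the 39 were lower and 1 higher, against 10.5% and 18%. Without the first or without the second control library 3 members were called, and without the first or the second Dnd1-KD library 4. Isg15, Trim25 and Samd9l, all lower, were called in every alternative in which they could be fitted. Both Dnd1-KD libraries lay below both control libraries in 25 of the 39 members and above them in 8, against 31.5% and 41.9% of units above 0.

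Between the derived lines, 16 of the 28 members were higher in CDGC1 than in CDGC6 and 4 were lower, against 23% and 24.1% of all units (47.2% in all). Without the filter 19 of the 39 were higher and 5 lower, against 15.4% and 20.8%. With the filter, of the 26 members with a value of their own, 15 were higher and 4 lower. Both CDGC1 libraries lay above both CDGC6 libraries in 27 members and below them in 8, against 26.7% and 36.3%. The median log2 difference was 0.90 for the members and −0.02 for all units. Of the 20 calls, 16 held in every alternative in which the gene could be fitted. These 16 include the 5 members that passed the filter through the CDGC1 libraries alone and had to differ. Libraries of 1 group differed as well. The second CDGC1 library was above the first in 32 of the 39 members, against 59% of units, and the second CDGC6 library was above its first in 12, against 45.5%. In control the second library was above in 21 (50.6% of units) and in Dnd1-KD in 16 (46.6%).

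**Figure D2:**
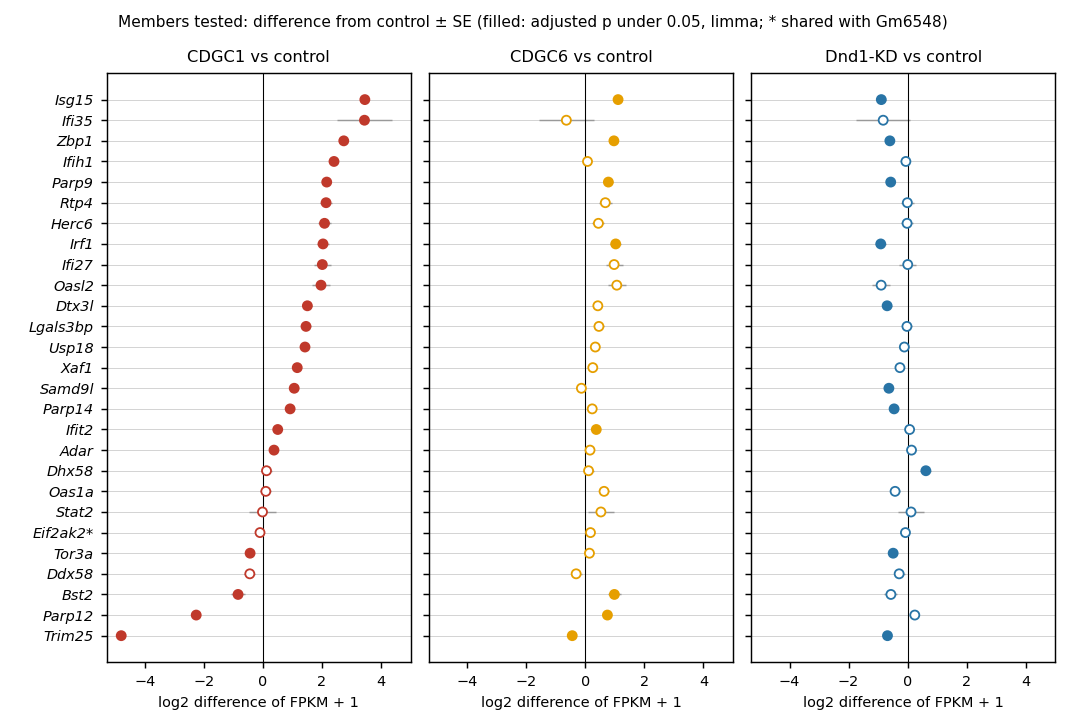
Log2 difference of FPKM + 1 from control (horizontal axis) with its SE for 27 tested members (rows), in CDGC1, CDGC6 and Dnd1-KD, where filled points passed the test. In CDGC1 the values run from −4.80 for Trim25 to 3.45 for Isg15, from −0.64 to 1.11 in CDGC6, and from −0.91 to 0.61 in Dnd1-KD; all 3 panels share the control libraries.

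Among the RNA sensors, Ifih1 and Zbp1 were high in CDGC1, whereas Ddx58 was not. Ifih1, which encodes MDA5, a sensor of long double-stranded RNA, was at 5.41 and 5.88 FPKM in CDGC1 and 0.402 and 0.242 in CDGC6. It was at 0.241 and 0.271 FPKM in control and 0.201 and 0.204 in Dnd1-KD. Both CDGC1 libraries stood far above the other 6 (2.40 ± 0.09 against control, adjusted p = 1.38e-05, limma).
Ddx58, which encodes RIG-I, was at 4.75 and 7.50 FPKM in CDGC1, 6.96 and 6.40 in CDGC6, 9.18 and 7.94 in control, and 7.06 and 6.54 in Dnd1-KD. Its control libraries were the highest, and no comparison passed (adjusted p from 0.0933 to 0.587, limma). Without the second CDGC1 library CDGC1 was called lower than control, at −0.73. Dhx58, the related helicase LGP2, was at 1.48 and 1.11 FPKM in Dnd1-KD and at 0.382 to 0.873 in the other 6 libraries (0.61 ± 0.19 against control, adjusted p = 0.0469, limma). That call ended without either control library, without either Dnd1-KD library, with a pseudocount of 0.1 and without the filter.

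Zbp1 encodes a sensor of left-handed nucleic acids that can trigger cell death. It was at 10.3 and 9.69 FPKM in CDGC1, 2.77 and 1.76 in CDGC6, 0.709 and 0.597 in control, and 0.0856 and 0.0868 in Dnd1-KD. The 4 groups did not overlap, and CDGC1 was above control by 2.73 ± 0.15 (adjusted p = 4.87e-05, limma). CDGC6 was above control by 0.97 ± 0.15 (adjusted p = 0.0116) and Dnd1-KD below it by a log2 difference of −0.60 ± 0.15 (adjusted p = 0.0262). Both of these calls ended without either control library. The Dnd1-KD values rest on about 4 and 1 implied fragments, and that call also ended with quantile normalization, with a pseudocount of 5 and without either Dnd1-KD library.
Adar edits adenosine to inosine in double-stranded RNA and so keeps a cell's own RNA from being sensed. It was at 13.7 and 15.6 FPKM in CDGC1, 12.7 and 12.2 in CDGC6, 11.2 and 11.0 in control, and 12.6 and 11.9 in Dnd1-KD. On the log scale it had the narrowest range of the sensors with a value of their own (0.37 ± 0.09 for CDGC1 against control, adjusted p = 0.0135, limma). The joint entry of Eif2ak2 and Gm6548 ranged from 219 to 290.5 FPKM with no call.

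Trim25 was nearly absent from CDGC1. It encodes a ubiquitin ligase known to modify RIG-I and to be an interferon-induced gene. It was at 0.126 and 0.205 FPKM in CDGC1, 23.3 and 22.5 in CDGC6, 32.0 and 31.1 in control, and 20.5 and 18.1 in Dnd1-KD. About 18 and 39 fragments lay behind the CDGC1 values, against at least 1490 in each other library. CDGC1 was below control by a log2 difference of −4.80 ± 0.09 (adjusted p = 1.5e-06, limma) and below CDGC6 by −4.36 ± 0.09 (adjusted p = 3.23e-06). Dnd1-KD was also below control (−0.69 ± 0.09, adjusted p = 0.00362). CDGC6 was at −0.45 ± 0.09 (adjusted p = 0.0234), a call that ended without any 1 of the CDGC6 or control libraries and with a pseudocount of 0.1.
The protein-coding genes within 250000 bases of Trim25 were examined after its values were seen. Coil, which lies 7763 bases away, was at 15.9 and 16.9 FPKM in CDGC1 and 20.8 and 20.2 in control. Dgke was at 1.24 and 1.86 against 4.88 and 5.98 FPKM, Scpep1 at 26.6 and 33.2 against 60.6 and 61.3, and Akap1 at 21.4 and 20.6 against 37.8 and 35.6. All 4 were lower in CDGC1 by the test, but none came near 0.

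**Figure D3:**
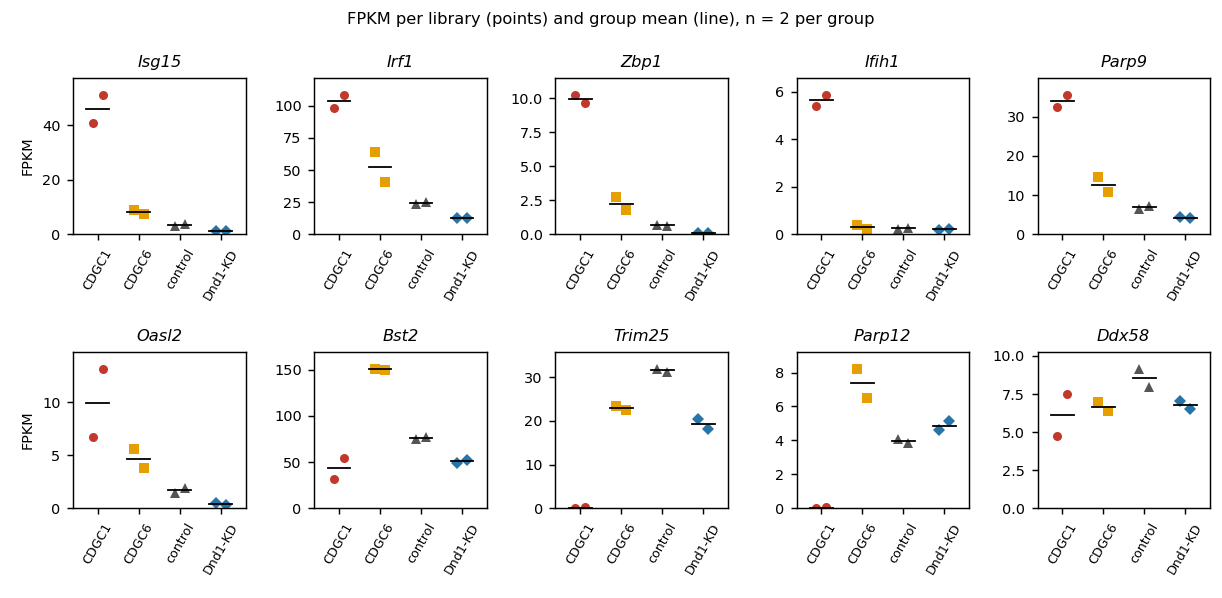
FPKM per library (vertical axis, from 0) for 10 members in the 4 groups, with points for libraries and a line for the group mean. Isg15, Irf1, Zbp1, Parp9 and Oasl2 step down from CDGC1 to Dnd1-KD, Ifih1 is high in CDGC1 alone, and Trim25 and Parp12 are near 0 in CDGC1; Ddx58 overlaps between groups.

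Of the transcription factors, Irf1 was abundant and graded, and Stat2 did not pass. Irf1, a factor that interferon gamma induces, was at 98.5 and 109 FPKM in CDGC1, 64.0 and 40.8 in CDGC6, 23.9 and 25.3 in control, and 12.8 and 12.4 in Dnd1-KD. It was the most abundant member with a value of its own in CDGC1, and no 2 groups overlapped. CDGC1 was above control by 2.03 ± 0.19 (adjusted p = 0.000377, limma), CDGC6 above it by 1.03 ± 0.19 (adjusted p = 0.0193), and Dnd1-KD below it by a log2 difference of −0.91 ± 0.19 (adjusted p = 0.0154). The CDGC6 and Dnd1-KD calls ended without either control library, that of CDGC6 also with only its 2 groups in the fit and that of Dnd1-KD without either of its own libraries. CDGC1 was also above CDGC6 (1.0 ± 0.19, adjusted p = 0.0071).
Stat2, a factor of the interferon signal, was at 4.11 and 8.01 FPKM in CDGC1, 14.5 and 5.33 in CDGC6, 5.77 and 5.99 in control, and 6.53 and 6.34 in Dnd1-KD. The libraries of each derived line lay far apart, and the file's own intervals were wide in 1 library of each (0.342 to 7.88 FPKM in the first CDGC1 library and 2.39 to 8.27 in the second CDGC6 library). Irf7, the factor that amplifies interferon gene transcription, stayed at 0.0507 to 0.540 FPKM in all 8 libraries and was not tested.
Irf9 had an entry of its own in 3 libraries, at 2.53 FPKM in the first CDGC1 library and at 7.31 and 4.38 in CDGC6.

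ISG15 is a ubiquitin-like protein that is joined to other proteins during the interferon response, by UBA7 as the activating enzyme and, in the mouse, HERC6 as a ligase, and removed by USP18. With the pseudocount of 1, Isg15 had the largest positive log2 difference between CDGC1 and control of the members; with a pseudocount of 0.1 that of Rtp4 was larger (4.53, against 3.76 for Isg15). It was at 40.9 and 51.2 FPKM in CDGC1, 8.94 and 7.58 in CDGC6, 2.96 and 3.64 in control, and 1.28 and 1.33 in Dnd1-KD. No groups overlapped. The log2 difference from control was 3.45 ± 0.15 in CDGC1 (adjusted p = 1.74e-05, limma), 1.11 ± 0.15 in CDGC6 (adjusted p = 0.0069) and −0.90 ± 0.15 in Dnd1-KD (adjusted p = 0.00692). Dropping the first control library ended the CDGC6 call, as given above.
Usp18, which also limits signalling at the interferon receptor, was at 1.77 and 2.20 FPKM in CDGC1 and 0.461 and 0.352 in CDGC6. It was at 0.0908 and 0.137 FPKM in control and 0.0325 and 0.0247 in Dnd1-KD, so the 4 groups did not overlap (1.42 ± 0.10 for CDGC1 against control, adjusted p = 0.000112). Herc6 was at 2.93 and 5.12 FPKM in CDGC1, 0.693 and 0.464 in CDGC6, 0.174 and 0.145 in control, and 0.164 and 0.122 in Dnd1-KD (2.08 ± 0.21, adjusted p = 0.000421). The file gave the first CDGC1 value of Herc6 an interval so wide, from 0 to 13310 FPKM, that this value is poorly determined. Uba7 was under the filter, at 0.428 and 0.972 FPKM in CDGC1 and 0.0131 to 0.236 in the other 6 libraries.

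The IFIT and OAS effectors bind viral RNA or lead to its decay, and all but Oasl2 stayed under 5 FPKM in every library. Of the 7 listed, 3 passed the filter, and of these Oasl2 and Ifit2 were higher in CDGC1 than in control. Oasl2, an OAS-like protein, was at 6.71 and 13.2 FPKM in CDGC1, 5.61 and 3.76 in CDGC6, 1.49 and 1.90 in control, and 0.526 and 0.356 in Dnd1-KD. The groups did not overlap, and CDGC1 was above control by 1.96 ± 0.31 (adjusted p = 0.00265, limma). CDGC6 (1.06 ± 0.31, adjusted p = 0.059) and Dnd1-KD (−0.90 ± 0.31, adjusted p = 0.0625) did not pass.
Ifit2 was at 1.07 and 1.38 FPKM in CDGC1, 0.972 and 1.09 in CDGC6, 0.561 and 0.582 in control, and 0.634 and 0.651 in Dnd1-KD. Both derived lines were called higher, CDGC1 by 0.50 ± 0.10 (adjusted p = 0.00629) and CDGC6 by 0.37 ± 0.10 (adjusted p = 0.0464). The CDGC6 call ended with a pseudocount of 5 and without any 1 of the CDGC6, control or Dnd1-KD libraries. Oas1a, a synthetase that activates RNase L, was at 3.95 and 4.58 FPKM in CDGC6 and at 1.34 to 3.32 in the other 6 libraries, with no call.
Ifit1 and Ifit3, which bind viral RNA ends as a complex, did not reach 1 FPKM in any library. Ifit1 was at 0.455 and 0.865 FPKM in CDGC1, 0.297 and 0.304 in CDGC6, 0.0325 and 0.0630 in control, and 0.0197 and 0.0292 in Dnd1-KD. Ifit3 was at 0.398 and 0.968 FPKM in CDGC1 and at 0.0331 to 0.241 in the other 6 libraries. Both kept the order CDGC1, CDGC6, control, Dnd1-KD without overlap, although as few as 1 or 2 fragments lay behind the Dnd1-KD values. Oas1b and Oasl1 had their highest means in CDGC6, at most 0.863 FPKM in any library.

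Among the restriction factors Bst2 was abundant and differed in direction between the derived lines. Bst2, or tetherin, holds budding virus at the cell surface. It was at 31.8 and 54.3 FPKM in CDGC1, 151 and 149 in CDGC6, 74.6 and 76.6 in control, and 49.1 and 52.2 in Dnd1-KD. CDGC6 was above all other libraries and CDGC1 overlapped Dnd1-KD at the bottom. Against control CDGC6 was higher by 0.98 ± 0.22 (adjusted p = 0.0321, limma) and CDGC1 was lower by a log2 difference of −0.85 ± 0.22 (adjusted p = 0.0203). The difference between the lines, −1.83 ± 0.22 for CDGC1 minus CDGC6 (adjusted p = 0.00117), held in every alternative. Both calls against control ended without either control library, that of CDGC1 also with only its 2 groups in the fit, that of CDGC6 also without either of its own or either Dnd1-KD library, and the CDGC1 difference was −0.47 without the first CDGC1 library.
Samd9l, a translation inhibitor, was at 3.61 and 3.79 FPKM in CDGC1, 1.06 in both CDGC6 libraries, 1.31 and 1.21 in control, and 0.483 and 0.423 in Dnd1-KD. CDGC1 was above control (1.05 ± 0.08, adjusted p = 0.000158) and Dnd1-KD below it (−0.64 ± 0.08, adjusted p = 0.00337). Of the remaining 4, Mx2 reached 0.738 and 1.60 FPKM in CDGC1 and 0.0345 to 0.556 elsewhere. Cmpk2 ran from 0.193 to 0.816 FPKM and Rsad2, which encodes viperin, from 0.0108 to 0.324. Mx1 was at most 0.0657 FPKM in any library.

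RNA of Parp9 and Parp14, which encode ADP-ribosyl transferases, and of Dtx3l was higher in CDGC1 than in control. DTX3L is a ubiquitin ligase that forms a complex with PARP9. RNA of Parp12, whose protein acts against viral translation, was nearly absent from CDGC1. Parp9 and Dtx3l lie side by side on chromosome 16 with overlapping starts on opposite strands (Parp9 at 35938470 to 35972605, Dtx3l at 35926511 to 35939151 of mm10), and Parp14 is next to them at 35832874 to 35871544. Parp9 was at 32.5 and 35.6 FPKM in CDGC1, 14.5 and 10.7 in CDGC6, 6.53 and 7.20 in control, and 4.50 and 4.04 in Dnd1-KD. Dtx3l was at 16.0 and 17.0 FPKM in CDGC1, 8.65 and 6.08 in CDGC6, 5.11 and 5.24 in control, and 3.01 and 2.61 in Dnd1-KD. Both genes kept the same order of groups with no overlap.
Against control Parp9 was higher in CDGC1 by 2.16 ± 0.15 (adjusted p = 0.000105, limma) and in CDGC6 by 0.78 ± 0.15 (adjusted p = 0.0198), and lower in Dnd1-KD by a log2 difference of −0.58 ± 0.15 (adjusted p = 0.0278). Dtx3l was higher in CDGC1 by 1.5 ± 0.16 (adjusted p = 0.000511) and lower in Dnd1-KD by −0.70 ± 0.16 (adjusted p = 0.0176). Parp14 was at 4.98 and 5.16 FPKM in CDGC1, 3.20 and 2.39 in CDGC6, 2.18 and 2.25 in control, and 1.43 and 1.24 in Dnd1-KD. It was higher in CDGC1 (0.92 ± 0.12, adjusted p = 0.00144) and lower in Dnd1-KD (−0.46 ± 0.12, adjusted p = 0.0304). The Dnd1-KD calls of these 3 genes and the CDGC6 call of Parp9 ended without either control library. Without the second Dnd1-KD library all 3 Dnd1-KD calls ended too, and without the first those of Parp9 and Parp14. The CDGC6 call of Parp9 also ended with only its 2 groups in the fit, its Dnd1-KD call with a pseudocount of 5, and that of Parp14 without the filter.
Parp12 (chromosome 6, 39086410 to 39118349 of mm10) was at 0.0116 and 0.0562 FPKM in CDGC1, 8.24 and 6.51 in CDGC6, 4.11 and 3.83 in control, and 4.59 and 5.16 in Dnd1-KD. CDGC1 had about 1 and 6 implied fragments, against 267 or more in each other library (−2.26 ± 0.13 against control, adjusted p = 4.67e-05). CDGC6 was the highest group (0.75 ± 0.13 against control, adjusted p = 0.0134), a call that ended without either control library. The nearest tested protein-coding gene, Kdm7a, 18274 bases away and examined after the values of Parp12 were seen, was at 2.36 and 3.86 FPKM in CDGC1 and 2.79 and 2.86 in control (adjusted p = 0.788).

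Loss in CDGC1 was not particular to these 2 members. Of 10110 units with at least 1 FPKM in all of the other 6 libraries, 528 (5.22%) were under 1 FPKM in both CDGC1 libraries, and of 16 members Trim25 and Parp12 were.

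The remaining members are induced by interferon with less settled roles. Of the 7, 6 were tested, and Ifi35, Ifi27, Xaf1, Rtp4 and Lgals3bp were higher in CDGC1. Rtp4, a chaperone of membrane receptors that also binds RNA, was at 2.88 and 4.61 FPKM in CDGC1, 0.989 and 0.446 in CDGC6, 0.0577 and 0.0672 in control, and 0.0496 and 0.0566 in Dnd1-KD. The libraries of CDGC1 and CDGC6 stood above all ES cell libraries (2.13 ± 0.21 for CDGC1 against control, adjusted p = 0.000442, and 0.67 ± 0.21 for CDGC6, adjusted p = 0.0748, limma). Ifi27, a mitochondrial membrane protein, was at 2.86 and 4.04 FPKM in CDGC1, 1.92 and 0.586 in CDGC6, 0.140 and 0.0544 in control, and 0.0592 and 0.135 in Dnd1-KD (2.01 ± 0.29 for CDGC1, adjusted p = 0.00184).
Lgals3bp, a secreted glycoprotein, was at 1.84 and 2.97 FPKM in CDGC1, 0.781 and 0.592 in CDGC6, 0.217 and 0.234 in control, and 0.190 and 0.217 in Dnd1-KD (1.45 ± 0.16, adjusted p = 0.000694). Xaf1, an antagonist of the apoptosis inhibitor XIAP, was at 8.40 and 7.13 FPKM in CDGC1 and 2.09 to 3.70 in the other 6 libraries (1.16 ± 0.12, adjusted p = 0.000593).
Ifi35 was at 40.9 and 36.4 FPKM in CDGC1 and 2.82 and 2.52 in control, but was listed at 0 in the first CDGC6 and the second Dnd1-KD library, where the partner libraries held 4.50 and 3.24 FPKM. An exact 0 in these tables can be a failed estimate, although no entry of the Dnd1-KD libraries carried that status. The spread such zeros add made the SE of Ifi35 the widest of all members (3.43 ± 0.92 for CDGC1 against control, adjusted p = 0.0219, limma). Without any 1 of the CDGC1 or control libraries the call against control ended (adjusted p from 0.0701 to 0.0835), as it did with a pseudocount of 0.1 (adjusted p = 0.192).
Tor3a, an ATPase of the endoplasmic reticulum, was lower than control in both CDGC1 and Dnd1-KD. It was at 5.23 and 5.75 FPKM in CDGC1, 8.69 and 8.65 in CDGC6, 8.15 and 7.46 in control, and 4.56 and 6.02 in Dnd1-KD (−0.44 ± 0.13 and −0.49 ± 0.13 against control, adjusted p = 0.0306 and 0.0291). The CDGC1 call ended without any 1 of the CDGC1 or control libraries and with quantile normalization. The Dnd1-KD call ended with only its 2 groups in the fit and without either control library or the first Dnd1-KD library, where the difference was −0.33. Ifi44 was at most 0.0628 FPKM in any library.

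Few interferon transcripts were listed in any group, although an exact 0 can be a failed estimate. Of 12 interferon genes listed, 6 were listed at 0 in all 8 libraries, Ifnb1 among them, and the highest value of any was 0.322 FPKM, for Ifna4 in the second CDGC1 library. The receptors were measured in every group. Ifnar1, a chain of the type I interferon receptor, was at 7.51 and 7.52 FPKM in CDGC1, 8.38 and 8.14 in CDGC6, 9.32 and 9.04 in control, and 12.7 and 12.3 in Dnd1-KD. It was higher in Dnd1-KD (0.41 ± 0.07, adjusted p = 0.00924, limma) and lower in CDGC1 (−0.26 ± 0.07, adjusted p = 0.0272). Its partner Ifnar2 was at 9.01 and 8.40 FPKM in CDGC1 and 3.94 and 4.08 in control. The interferon gamma receptor chain Ifngr1 was higher in Dnd1-KD by 1.05 ± 0.14 (adjusted p = 0.00383). Of the 5 receptor genes tested, 4 were higher in Dnd1-KD than in control (20.7% of all units), 2 were higher and 2 lower in CDGC1 (23.6% and 26.9%), and 1 was lower in CDGC6 (10.2%).

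**Figure D4:**
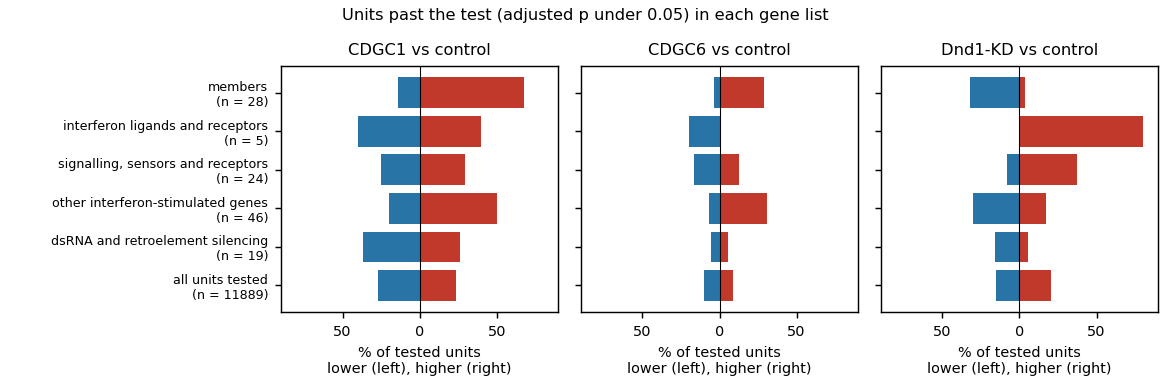
Percentage of tested units called higher (right of 0) or lower (left of 0) than control in the members, in 4 other gene lists of the pathway and over all 11889 units tested, for CDGC1, CDGC6 and Dnd1-KD. Members called higher outnumber those called lower in CDGC1 (19 and 4) and CDGC6 (8 and 1), and the reverse holds in Dnd1-KD (1 and 9).

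Of 24 tested genes between the sensors or receptors and the nucleus, 7 were higher and 6 lower in CDGC1, 3 and 4 in CDGC6, and 9 and 2 in Dnd1-KD, against 23.6% and 26.9%, 8.49% and 10.2%, and 20.7% and 15.5% of all units. Mavs was at 4.42 to 6.28 FPKM in all 8 libraries with no call. Tbk1 was at 23.7 and 25.2 FPKM in CDGC1, 16.7 and 15.6 in CDGC6, 16.8 and 17.1 in control, and 20.9 and 22.9 in Dnd1-KD. Irf3 was at 14.3 to 21.5 FPKM in 6 libraries but at an exact 0 in the 2 Dnd1-KD libraries, which gave 1 of the 2 lower calls. No entry in those 2 libraries carried the status of a failed estimate. What lies behind the exact 0 of Irf3 was not tested. Jak2 and Tank, an adaptor of TBK1, were higher in CDGC1 by 1.13 and 1.48 log2 units. Nmi, which binds IFI35, was at 0.0332 and 0.101 FPKM in CDGC1 against 1.19 and 1.07 in control. In Dnd1-KD the kinase gene Jak1 was at 25.7 and 27.0 FPKM, against 12.87 and 12.98 in control.

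A further list of interferon-stimulated genes that are not members gave counts of the same direction. Like the members, it was chosen with earlier results of these data known, so it is no independent support. Of 46 tested, 23 were higher and 9 lower in CDGC1 than in control (23.6% and 26.9% of all units tested). In CDGC6 14 were higher and 3 lower (8.49% and 10.2%), and in Dnd1-KD 8 and 14 (20.7% and 15.5%). On the log2(FPKM + 1) scale the largest rise in CDGC1 was that of Psmb8, an immunoproteasome subunit measured together with Tap2, at 165 and 186 FPKM against 9.08 and 10.8 in control. Next came the joint entry of the immunity GTPases Igtp and Irgm2, at 24.8 and 39.3 against 1.53 and 1.55 FPKM. Irgm1, of the same family, was at 108 and 107 FPKM in CDGC1, 18.9 and 15.4 in CDGC6, 9.86 and 10.4 in control, and 4.90 and 4.89 in Dnd1-KD, which was the order seen for Isg15. Gbp2 and Gbp3, guanylate-binding proteins, were at 225 and 193 FPKM and at 40.9 and 39.4 FPKM in CDGC1, against 24.4 and 27.7 and 3.26 and 3.87 in control. Ifitm1 and Ifitm3, whose proteins block viral entry, had their highest levels in CDGC6. Ifitm3 was at 69.3 and 71.8 FPKM in CDGC1, 213 and 225 in CDGC6 and 158 and 161 in control. The DNA sensor gene Aim2, at 0.758 and 0.803 FPKM in CDGC1 against 10.0 and 9.69 in control, and the joint entry of Phf11d, Phf11a, Phf11b and Gm6904, at 0.0447 and 0.283 against 11.3 and 11.4, also fell in CDGC1.

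A list on double-stranded RNA and retroelement silencing was also made, with Dicer1, Ago2 and Adarb1 beside genes that silence retroelements. Retroelements are a known source of a cell's own double-stranded RNA. Of 19 tested, 5 were higher and 7 lower in CDGC1 (23.6% and 26.9% of all units), 1 and 1 in CDGC6 (8.49% and 10.2%), and 1 and 3 in Dnd1-KD (20.7% and 15.5%). The largest fall in CDGC1 was that of 2410137M14Rik, measured together with H2-M5, at 0.0728 and 0.264 FPKM against 17.2 and 17.1 in control. Fam208a, a subunit of the HUSH silencing complex, was at 6.17 and 5.92 FPKM in CDGC1 against 23.98 and 23.27 in control. The histone methyltransferase gene Setdb1 was at 24.9 and 23.9 FPKM against 36.5 and 33.1. Other listed genes stood above control in CDGC1. Pphln1 was at 64.1 and 53.1 FPKM in CDGC1 against 15.8 and 13.6 in control. Morc2a was at 55.3 and 52.4 FPKM against 35.4 and 33.8. The maintenance factors of DNA methylation fell in Dnd1-KD, Uhrf1 from 105 and 102 FPKM in control to 59.4 and 50.8 and Dnmt1 from 69.4 and 71.0 to 51.2 and 43.9.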

How the data were processed

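The authors deposited 1 Cufflinks gene table per library with FPKM and its interval, per the file headers. TopHat2, Bowtie, Cufflinks, Cuffdiff and mm10 are named in the submitters' processing notes, without versions or roles. RNA was taken with RNeasy kits and libraries were made with TruSeq RNA v2, per the labels' protocols. Symbols joined in any table were kept as 1 unit, with FPKM summed. Small RNA genes and entries without a gene name were left out; the latter held 76.8% to 85.6% of a library's summed FPKM. The test was limma 3.58.1 (R 4.3.3) on log2(FPKM + 1) of units that reached 1 FPKM in 2 or more libraries: 1 mean per group, trend, two-sided, Benjamini-Hochberg, threshold 0.05. The pseudocount understates changes of low genes. Groups come from the labels. Implied fragments come from the file's interval, taken as 2 standard deviations of a count; where it also holds uncertainty between isoforms, they are too low. They cover counting error only. The fit was tested on simulated data. Gene coordinates are from GENCODE vM21 (mm10). Python 3.11.15, pandas 2.3.3, numpy 2.4.6 and matplotlib 3.10.9 were used. Members and lists were chosen with earlier results of these data known. Every member was described, those past the threshold with full values; of other lists, up to 4 genes per comparison with the smallest p, and Irf3, Mavs, Ifnar1 and Tbk1, were to be named; 1 further gene of that rule is not reported here. Other genes named from the lists, and the neighbours of Trim25 and Parp12, were picked after their values were seen. Alternatives were other pseudocounts, filters and scalings, only the compared groups, the replicate number as a block, exact zeros as missing, single-symbol entries, and each library left out.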

Additional observations from a re-analysis of the deposited data

Results flagged for a closer look

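The members Bst2, Parp12, Tor3a, Samd9l and Ifi35 differed between CDGC1 and CDGC6 by the test and lay on opposite sides of control in the 2 lines, with a call against control in at least 1 of them (limma, Benjamini-Hochberg). For Bst2 the difference, CDGC1 minus CDGC6, was −1.83 on the log2 scale (−0.85 and 0.98 against control, adjusted p between the lines 0.00117). For Parp12 it was −3.01 (−2.26 and 0.75, adjusted p = 2.33e-05). For Tor3a it was −0.58 (−0.44 and 0.14, adjusted p = 0.0124), which ended without the first CDGC1 library. For Samd9l it was 1.19 (1.05 and −0.14, adjusted p = 0.000133). For Ifi35 it was 4.08 (3.43 and −0.64, adjusted p = 0.0126), which ended without the first CDGC1 library and with a pseudocount of 0.1, and the CDGC6 side rests on a library listed at 0.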

How the results depend on the processing

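The number of calls depended on which libraries entered the fit. Leaving out 1 library at a time, the members called in CDGC6 against control ran from 0 (without the first control library) to 15 (without either CDGC1 library), and all units called from 422 to 2905, against 9 and 2223 with all libraries. In Dnd1-KD against control the members called ran from 3 to 14 and all units from 1366 to 4934, against 10 and 4310. A smaller group gives each comparison a larger error; the cause of the rises without a CDGC1 library was not tested. With a filter of 5 FPKM, 18 members could be tested, and 15 were called in CDGC1 against control and 13 in CDGC1 against CDGC6. Every value that was called, in the main setting or the alternative, kept its direction except in 2 cases. With entries of 1 symbol only, Irf9 was lower in CDGC1 than in CDGC6 (−0.92, adjusted p = 0.113, limma), because the summed unit no longer entered. With exact zeros set to missing, Ifi35 was higher in CDGC6 than in control (0.58, adjusted p = 0.0481), where its main value was −0.64 and not called.

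Replicate numbers did not pair the libraries: the correlation of same-numbered deviations between groups ran from −0.0493 to 0.121. With the replicate number as a block, 23 members were called in CDGC1 against control, 8 in CDGC6, 9 in Dnd1-KD and 20 in CDGC1 against CDGC6, and 3928 units in all in Dnd1-KD; Dhx58 in Dnd1-KD and Ifit2 in CDGC6 were no longer called. Depth limits the members under the filter, some of which rest on 1 to 5 fragments in the ES cells.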
